A study of Mus musculus with 15 samples.

Results

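Nphs1 and 5 genes close to it on mouse chromosome 7, Kirrel2, Aplp1, Nfkbid, Hcst and Prodh2, were followed in 15 eyecup libraries to see whether the strong rise of Nphs1 in Tmem135 mutant eyecups was that gene's own or was shared by the genes around it. These 6 genes, of 55421 genes counted, were listed by name. Nphs1 was chosen by its rise over WT in these same libraries and the other 5 by their position, so the values of Nphs1 against WT are a description with no test. The low-count filter kept 18979 genes for testing, among them 3 of the 6 (Nphs1, Aplp1 and Nfkbid), whereas Kirrel2, Hcst and Prodh2 held too few counts. To describe the surroundings without choosing genes by hand, all 54 genes lying within 250 kb of Nphs1 (Nphs1 included) were also followed, of which 29 were tested.

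RNA was sequenced from posterior eyecups freed of neural retina, a tissue of retinal pigmented epithelium (RPE), choroid and sclera, taken from mice 2.5 months old. The groups were 4 WT mice, 6 mice heterozygous for the FUN025 mutation of the transmembrane protein gene Tmem135 (FUN025/+), and 5 homozygous mice (FUN025/FUN025). All mice were on the C57BL/6J background, each library came from the pooled eyecups of 1 mouse, and both sexes were used without the sex of each mouse being labelled. The study lists as many males as females in WT, more males in FUN025/+ and more females in FUN025/FUN025, and sex was not in the fit. The mutation is carried in every cell, and whether the WT mice were littermates of the mutants is not given in the sources used here.

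Library size separated the genotypes, with 18094977 to 20029919 counts in WT libraries, 10903183 to 13456349 in FUN025/+ and 11053535 to 15038383 in FUN025/FUN025 libraries, so every WT library was deeper than every mutant library. The WT libraries also held less ribosomal RNA, the rRNA gene CT010467.1 standing at 294 ± 27.4 CPM in WT (counts per 1000000 counts of the scaled library, mean ± SD, n = 4), 1552 ± 198 in FUN025/+ (n = 6) and 1572 ± 346 in FUN025/FUN025 (n = 5). Genotype, library size and rRNA content thus moved together and cannot be told apart in these samples. Summed RPE markers were at 20584 to 23561 CPM in WT, 20496 to 25585 in FUN025/+ and 20461 to 24084 in FUN025/FUN025 libraries. Of these 10 markers edgeR called 0 in each contrast with WT (1 and 2 at an unadjusted p under 0.05, 0 by DESeq2). Of all genes tested, 13.7% and 14.0% were called in those contrasts. Tmem135 itself, 58.7 Mb from Nphs1 on the same chromosome, was at 64.0 ± 2.99 CPM in WT, 75.0 ± 7.30 in FUN025/+ and 88.3 ± 4.57 in FUN025/FUN025 eyecups. By the edgeR quasi-likelihood test it rose by 0.23 (adjusted p = 0.0248) and by 0.47 (adjusted p = 0.000148) on the log2 scale.

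Nphs1 encodes nephrin, a transmembrane protein of the immunoglobulin superfamily that bridges neighbouring podocytes in the kidney and forms the slit diaphragm, the filter between their foot processes. Kirrel2 encodes a nephrin-like protein of the same superfamily and lies head to head with Nphs1. Aplp1 encodes a neuronal relative of the amyloid precursor protein, Nfkbid a nuclear inhibitor-type regulator of NF-kB, Hcst the adaptor DAP10 that pairs with the receptor NKG2D on T and NK cells, and Prodh2 the hydroxyproline dehydrogenase of liver and kidney.

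On GRCm38 (GENCODE M21 annotation), Nphs1 occupies chr7:30458315-30487223 on the plus strand. Kirrel2 (chr7:30447534-30457690, minus strand) begins 0.625 kb upstream of it, followed by Aplp1 (chr7:30434982-30445535, minus) at 12.8 kb, Nfkbid (chr7:30421732-30428746, plus) at 29.6 kb and Hcst (chr7:30417712-30419854, minus) at 38.5 kb. Prodh2 (chr7:30493622-30513402, plus) lies 6.40 kb downstream. The annotation places 2 further genes inside Nphs1, the antisense gene Nphs1os and Rps12-ps4 (chr7:30484701-30485097, minus strand), a processed pseudogene, that is, a copy of the spliced mRNA of the ribosomal protein gene Rps12 inserted in the genome.

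Rps12-ps4 lies in an intron of the 2 longest Nphs1 transcripts, Nphs1-201 and Nphs1-203, but overlaps by 183 bases the first exon (chr7:30484915-30486749) of a short retained-intron transcript, Nphs1-204. The overlap is shown because it is the sequence that the Nphs1 annotation shares with expressed Rps12 copies elsewhere in the genome. It is printed in the orientation of Rps12 from its start codon, beside the same bases of Rps12 on chromosome 10, of Rps12-ps3 on chromosome 19 and of Rps12-ps9 on chromosome 8 (GENCODE M21 transcripts, GRCm38). Capitals mark 2 bases of Rps12 that the copy in Nphs1 lacks, and the bases of Rps12-ps9 that differ from Rps12.
Rps12-ps4 and Nphs1: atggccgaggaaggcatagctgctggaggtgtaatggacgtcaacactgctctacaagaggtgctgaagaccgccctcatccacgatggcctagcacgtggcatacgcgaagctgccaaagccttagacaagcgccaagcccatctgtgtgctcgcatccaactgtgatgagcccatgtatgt
Rps12: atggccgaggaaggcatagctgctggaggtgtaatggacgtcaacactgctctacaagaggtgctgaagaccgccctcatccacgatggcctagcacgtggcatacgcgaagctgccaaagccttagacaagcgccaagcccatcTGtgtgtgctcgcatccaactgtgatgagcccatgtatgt
Rps12-ps3: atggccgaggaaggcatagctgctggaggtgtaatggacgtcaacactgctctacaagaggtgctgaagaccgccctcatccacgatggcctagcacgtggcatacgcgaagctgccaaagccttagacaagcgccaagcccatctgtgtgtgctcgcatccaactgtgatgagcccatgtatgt
Rps12-ps9: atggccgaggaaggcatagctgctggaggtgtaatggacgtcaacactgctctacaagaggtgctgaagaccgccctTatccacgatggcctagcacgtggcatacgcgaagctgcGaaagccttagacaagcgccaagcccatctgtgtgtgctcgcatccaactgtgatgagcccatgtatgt
All 183 bases of the copy in Nphs1 match Rps12 once the 2 missing bases are allowed for, Rps12-ps3 is identical to Rps12 over its 185 bases, and Rps12-ps9 carries the substitutions C78T and C117G, counted from 1 at the A of the start codon. The match to Rps12 runs on past the annotated end of Rps12-ps4 by 81 bases, so that 264 bases of the Nphs1-204 exon (chr7:30484915-30485178) resemble Rps12.

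**Figure D1:**
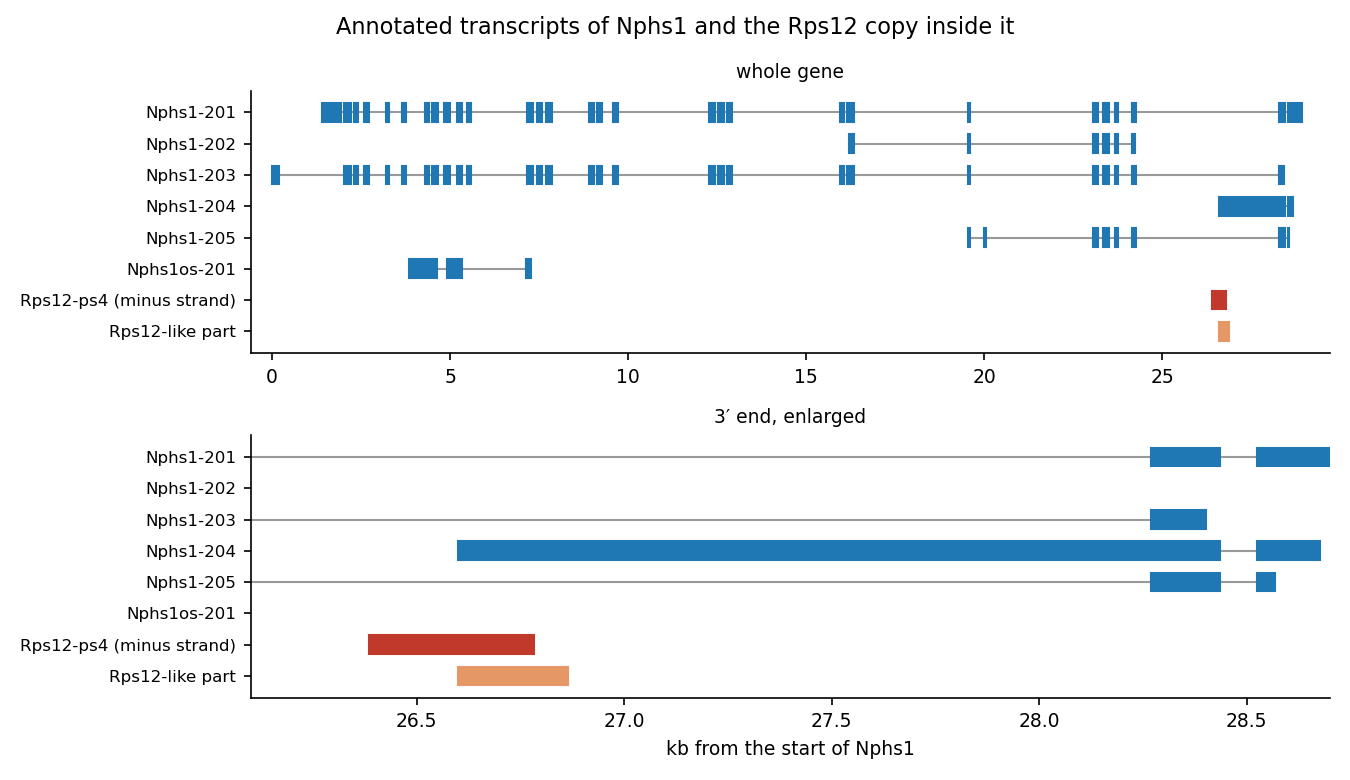
Exons (blue boxes) of the annotated Nphs1 transcripts and of the antisense gene Nphs1os, in kb from the start of Nphs1, with the processed pseudogene Rps12-ps4 (red) and the part resembling Rps12 (orange), for the whole gene above and its 3′ end below. The first exon of Nphs1-204 overlaps Rps12-ps4 by 183 bases, and no exon of the other 4 Nphs1 transcripts does.

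Counts assigned to Nphs1 were few in WT eyecups and several times higher in both mutant groups. They are counts of the whole gene, and how many lay in the exons that encode nephrin cannot be read from them. The 4 WT libraries held 21, 17, 25 and 25 counts of Nphs1, or 1.17, 0.915, 1.25 and 1.39 CPM. In FUN025/+ libraries the lowest value was 9.47 CPM, the median 10.1 and the highest 12.2, from 109 to 148 counts. FUN025/FUN025 libraries held 158, 102, 125, 115 and 119 counts, or 10.4, 7.85, 10.04, 9.45 and 10.8 CPM. The lowest mutant library was thus several times above the highest WT library, and neither mutant group overlapped WT.

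Mean Nphs1 levels were 1.18 ± 0.200 CPM in WT, 10.5 ± 1.07 CPM in FUN025/+ and 9.70 ± 1.15 CPM in FUN025/FUN025 eyecups, ratios to WT of 8.89 and 8.22. The fitted log2 differences from WT were 3.14 (SE 0.14) and 3.03 (SE 0.15), the 3rd and 10th largest rises among 17587 tested genes with a mean of at least 1 CPM. For scale, groups did not overlap for 10.9% of all genes tested in FUN025/+ against WT and for 14.8% in FUN025/FUN025 against WT. Because Nphs1 was listed for this rise, these values carry no test. In a bulk tissue, a change in the number of cells that hold a transcript and in its amount per cell cannot be told apart.

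The difference between the mutant groups, which did not serve to choose the gene, did not pass the test. The Nphs1 log2 difference of FUN025/FUN025 from FUN025/+ was -0.11 (95% interval -0.34 to 0.12), with an adjusted p = 1.00 in edgeR's quasi-likelihood test, where 0.522% of all genes tested were called. The values of both groups overlapped, and the interval is narrow beside the step from WT to either mutant.

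**Figure D2:**
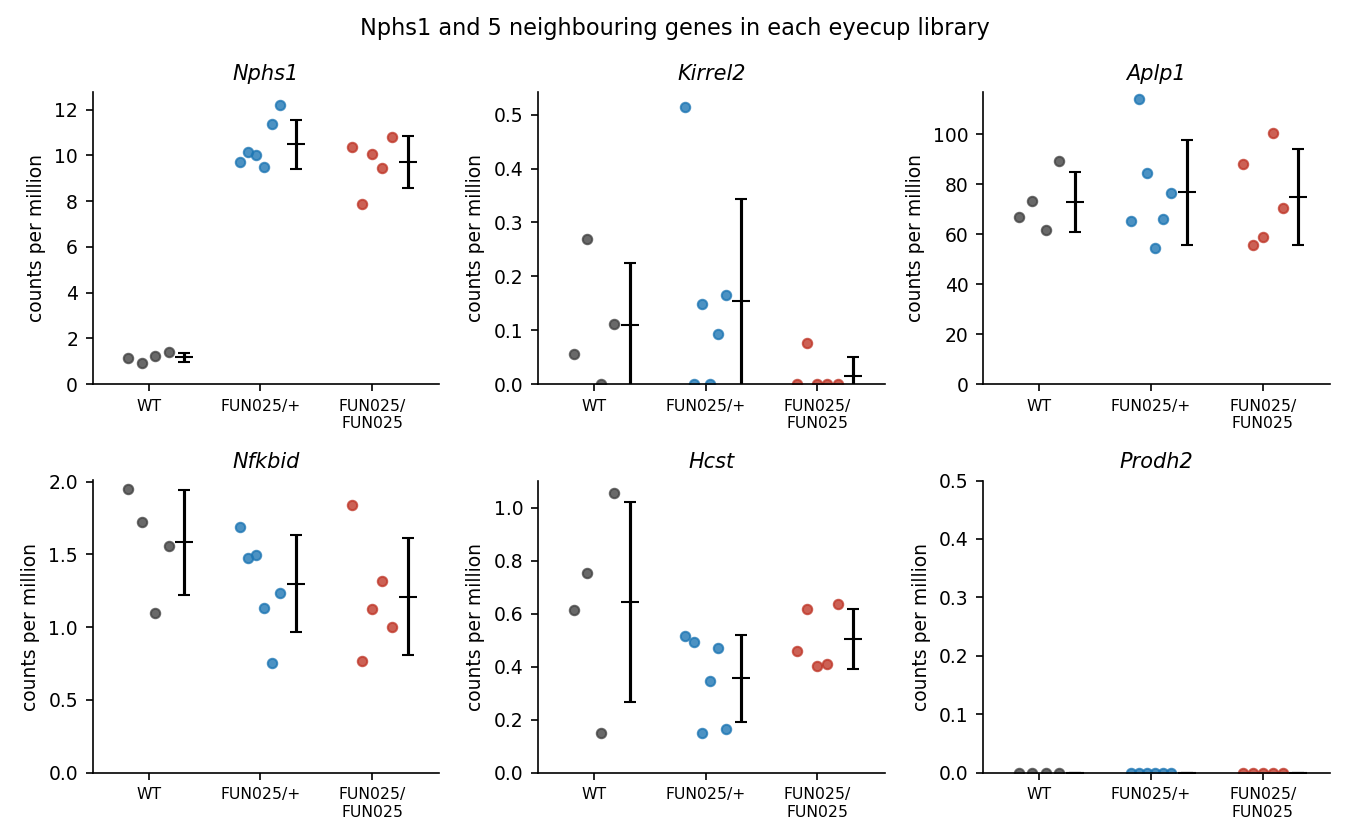
CPM (y axis, linear, from 0, a separate scale per gene) of Nphs1 and its 5 listed neighbours in each of 4 WT, 6 FUN025/+ and 5 FUN025/FUN025 libraries (points), with the mean and SD of each group at the right of its points. Nphs1 alone separates the mutant libraries from WT, Kirrel2 reaches at most 7 counts in a library, and Prodh2 has no count.

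Kirrel2, the nephrin-like gene that starts next to Nphs1, had next to no counts in any genotype. WT libraries held 1, 5, 0 and 2 counts, FUN025/+ libraries from 0 to 7, and FUN025/FUN025 libraries 0, 1, 0, 0 and 0. Its mean of 0.109 CPM in WT, 0.154 CPM in FUN025/+ and 0.0154 CPM in FUN025/FUN025 lay at or under the level of 3 counts, the least that a count of 0 can be told from, which was 0.150 to 0.275 CPM across libraries (counting error only). No fold change is given, and no rise of Kirrel2 beside that of Nphs1 was detectable at this depth.

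Prodh2, downstream of Nphs1, was at 0 counts in all 15 libraries, which allows at most 0.150 to 0.275 CPM in a library. Nphs1os, the antisense gene inside Nphs1, held 0 to 2 counts in WT, 0 to 4 in FUN025/+ and 0 in FUN025/FUN025 libraries.

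Aplp1, the amyloid precursor relative, was the best covered of the listed neighbours and did not pass the test. WT libraries held 1203, 1359, 1232 and 1606 counts, and 61.6 to 89.3 CPM. FUN025/+ libraries ran from 54.4 over a median of 71.3 to 113.8 CPM, and FUN025/FUN025 libraries from 55.8 over 70.3 to 100.6 CPM. The 3 groups overlapped over most of their range. The log2 fold change of Aplp1 was 0.08 in FUN025/+ (95% interval -0.39 to 0.54, adjusted p = 0.845) and 0.04 in FUN025/FUN025 (95% interval -0.44 to 0.52, adjusted p = 0.928) in edgeR's quasi-likelihood test. Summed neuronal markers varied from 63.5 to 214.7 CPM among WT, 45.3 to 82.2 CPM among FUN025/+ and 46.6 to 73.3 CPM among FUN025/FUN025 libraries. Of their 6 tested members edgeR called 0 in each contrast with WT (2 in each at an unadjusted p under 0.05, 0 by DESeq2). Over all genes tested, 13.7% and 14.0% were called. The part of these markers in the spread of Aplp1 was not tested.

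Nfkbid, the NF-kB regulator, held 35, 32, 22 and 28 counts in WT libraries, 8 to 23 in FUN025/+ and 28, 10, 14, 16 and 11 in FUN025/FUN025 libraries. Its mean went from 1.58 ± 0.359 CPM in WT to 1.30 ± 0.333 CPM in FUN025/+ and 1.21 ± 0.404 CPM in FUN025/FUN025, with overlapping groups. The log2 fold changes of -0.27 (95% interval -0.81 to 0.27, adjusted p = 0.520) and -0.37 (95% interval -0.93 to 0.20, adjusted p = 0.397) did not pass the edgeR test, and both intervals exclude a rise of the size seen for Nphs1.

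Hcst, the NKG2D adaptor, held 11, 14, 3 and 19 counts in WT libraries, 2 to 7 in FUN025/+ and 7, 8, 5, 5 and 7 in FUN025/FUN025 libraries. The WT range took in all values of both mutant groups apart from the lowest FUN025/+ library, which was level with the lowest WT library at 0.150 CPM. Fitted without the low-count filter, its log2 fold changes were -0.83 (95% interval -1.73 to 0.06, adjusted p = 0.316) and -0.34 (95% interval -1.22 to 0.55, adjusted p = 0.711) in edgeR. Of 8 T and NK cell markers, 4 held enough counts to be tested, and their summed level lay between 9.34 and 22.4 CPM in all 15 libraries.

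Of the 5 listed neighbours, 2 could be tested and edgeR called 0 of them in either WT contrast (0 at an unadjusted p under 0.05, and 0 by DESeq2), where 13.7% of all genes tested were called in FUN025/+ against WT and 14.0% in FUN025/FUN025 against WT. Per kb of exonic sequence, the mean level of Nphs1 moved from 0.178 CPM in WT to 1.58 CPM in FUN025/+ and 1.47 CPM in FUN025/FUN025, against 24.1, 25.4 and 24.8 CPM per kb for Aplp1 and 0.674, 0.553 and 0.515 CPM per kb for Nfkbid. In WT the order per kb was therefore Aplp1, Hcst (0.890 CPM per kb), Nfkbid, Nphs1 and Kirrel2 (0.0277 CPM per kb), with Hcst and Nfkbid not separable given their spread. In both mutant groups Nphs1 came second to Aplp1.

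Within 250 kb of Nphs1 on either side, a second gene rose strongly, and it was Rps12-ps4, the pseudogene that lies inside Nphs1. WT libraries held 26, 19, 29 and 28 counts of Rps12-ps4, or 1.37 ± 0.237 CPM. FUN025/+ libraries held 29 to 68 counts (3.98 ± 0.953 CPM) and FUN025/FUN025 libraries 73, 47, 67, 45 and 41 counts (4.24 ± 0.800 CPM). Every mutant library exceeded every WT library in CPM. The log2 fold changes were 1.54 (SE 0.21, adjusted p = 9.93e-05) and 1.63 (SE 0.21, adjusted p = 5.94e-05), with -0.29 to 0.47 as the 95% interval of the 0.09 difference between the mutant groups. Both calls held in all 22 alternative fits.

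No other tested gene in that stretch moved by as much as 1 on the log2 scale. Leaving out Nphs1, 28 genes were tested, of which 8 passed in FUN025/+ against WT (4 higher, 4 lower) and 8 in FUN025/FUN025 against WT (3 higher, 5 lower), or 28.6% in each, against 13.7% and 14.0% of all genes. By direction, 7.09% of all genes were called higher and 6.61% lower in FUN025/+, and 7.03% and 7.02% in FUN025/FUN025. The 2 contrasts share the 4 WT mice. The median log2 fold change of the 28 genes was -0.08 and 0.02, against -0.00234 and -0.00707 over all genes tested. Between the mutant groups edgeR called 0 of the 28 (2 at an unadjusted p under 0.05, 0 by DESeq2), where 0.522% of all genes were called. The remaining 25 genes of the stretch were not tested, 6 of them with no count in any library and none with more than 19 counts in a library.

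The higher genes besides Rps12-ps4 rose by small steps. Psenen, a subunit of the gamma-secretase complex, was at 37.6 to 43.4 CPM in WT, 50.9 to 57.1 CPM in FUN025/+ and 52.0 to 59.0 CPM in FUN025/FUN025 libraries, without overlap, and rose by 0.38 (adjusted p = 0.000109) and 0.41 (adjusted p = 5.85e-05) on the log2 scale. Gapdhs, the sperm form of glyceraldehyde-3-phosphate dehydrogenase, rose from 7.04 ± 0.797 CPM to 9.28 ± 0.522 CPM (log2 fold change 0.40, adjusted p = 0.0109) and 9.20 ± 0.732 CPM (0.38, adjusted p = 0.0163). Its partner on the other strand, Tmem147os, passed in FUN025/+ (0.36, adjusted p = 0.0308) and was at 0.20 (adjusted p = 0.239) in FUN025/FUN025. The Tmem147os call in FUN025/+ held in 9 of 15 fits that left out 1 library, with adjusted p up to 0.0913. The library kit does not mark strand, so counts of these overlapping genes are uncertain.

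The lower genes fell by similarly small steps. Hspb6, a small heat shock protein of muscle, fell by 0.68 (adjusted p = 0.00674) and 0.62 (adjusted p = 0.0140) on the log2 scale, from 85.7 ± 18.5 CPM in WT. Summed striated muscle markers ran from 2851 to 4332 CPM in WT, 1472 to 3105 in FUN025/+ and 1879 to 2376 in FUN025/FUN025 libraries. Of these 6 markers 2 and 3 were called lower, where 6.61% and 7.02% of all genes were. The part of these markers in the fall of Hspb6 was not tested. Clip3, a microtubule-associated protein, fell by 0.48 (adjusted p = 0.000500) and 0.39 (adjusted p = 0.00364). Cox6b1, a subunit of respiratory complex IV, fell by 0.35 (adjusted p = 0.00192) and 0.26 (adjusted p = 0.0173), and Tbcb, a tubulin folding cofactor, by 0.24 (adjusted p = 0.0420) and 0.25 (adjusted p = 0.0364). Lin37, a subunit of the cell-cycle repressor DREAM, fell by 0.35 in FUN025/FUN025 (adjusted p = 0.0304) and stood at -0.30 (adjusted p = 0.0518) in FUN025/+. Without the 4th WT library, 5 rather than 8 of the genes passed in FUN025/FUN025 against WT, as Cox6b1 (-0.20, adjusted p = 0.0764), Tbcb (-0.15, adjusted p = 0.150) and Lin37 (-0.28, adjusted p = 0.115) no longer did, while calls over all genes went from 2666 to 1528 in that fit. Tbcb no longer passed in FUN025/+ either (-0.14, adjusted p = 0.196). Leaving out other libraries ended calls too, since over 15 such fits Tbcb passed in 7 in FUN025/+ and 9 in FUN025/FUN025, and Lin37 in 10 in FUN025/FUN025.

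**Figure D3:**
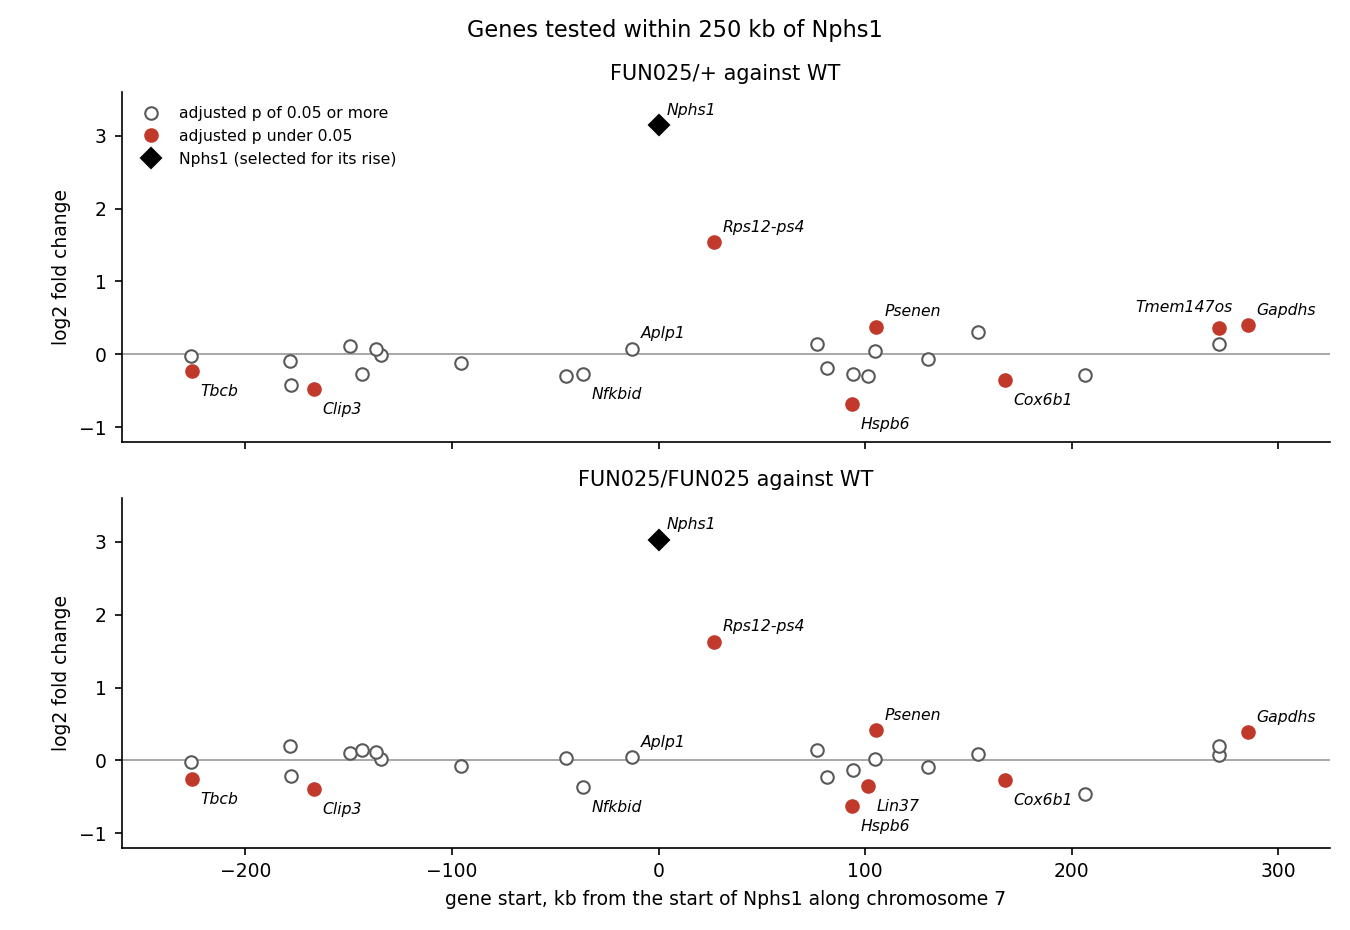
Log2 fold change against WT (y axis) of the 29 genes tested within 250 kb of Nphs1, by the position of their start in kb from the start of Nphs1 (x axis), for FUN025/+ above and FUN025/FUN025 below, with genes past an adjusted p of 0.05 filled. Nphs1, listed for its rise, is drawn as a black diamond that marks no test. It stands at 3.14 and 3.03 and Rps12-ps4 at 1.54 and 1.63, and every other tested gene lies between -0.68 and 0.41.

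Over wider stretches, each taking in the nearer genes, and on the rest of chromosome 7, the share of genes called was smaller. Within 1000 kb of Nphs1, 16 and 17 of 71 tested genes were called (22.5% and 23.9%), within 5000 kb 30 and 32 of 204 (14.7% and 15.7%), and on the rest of chromosome 7 181 and 187 of 1284 (14.1% and 14.6%). Nphs1 and Rps12-ps4 were the largest rises among tested genes within 5000 kb in both contrasts.

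Sequence shared with other genes bears on how reads of Nphs1 could be counted. Of all 31-base stretches in Nphs1 transcripts, 11.9% also occurred in another annotated gene, against 0% for Kirrel2, Aplp1, Nfkbid and Hcst, 4.05% for Prodh2 and 100% for Rps12-ps4. The sequenced reads were pairs of longer reads, so these shares of stretches are not shares of reads. Among the Nphs1 transcripts, 210 stretches of Nphs1-204 were shared with Rps12, and none of Nphs1-201 or Nphs1-203. Nphs1os, with at most 4 counts, held 454 of the 537 shared stretches of Nphs1-201 and all 454 of Nphs1-203. The rest of those of Nphs1-201 occurred in genes other than Nphs1os and Rps12, and the rest of the 252 shared stretches of Nphs1-204 in genes other than Rps12. Bases found in Nphs1-204 and in no other Nphs1 transcript made up 1670 of the 6620 exonic bases of the gene. The deposited counts are 1 number per gene and library, so how many Nphs1 counts lay in the part resembling Rps12, and how many in the exons that encode nephrin, cannot be read from them.

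Of the 25 genes that share that part of Nphs1, 13 had no count in any library, 5 were tested and 4 passed in each contrast with WT. Rps12, a protein of the small ribosomal subunit, was at 157 to 199 CPM in WT, 83.8 to 95.6 CPM in FUN025/+ and 83.0 to 98.4 CPM in FUN025/FUN025 libraries, and fell by 0.93 (adjusted p = 3.73e-08) and 0.90 (adjusted p = 5.98e-08) on the log2 scale. Rps12-ps3, identical to Rps12 over the bases printed above, rose from 37.4 ± 2.04 CPM to 62.7 ± 3.71 CPM (0.75, adjusted p = 9.64e-07) and 64.9 ± 6.28 CPM (0.79, adjusted p = 5.10e-07). Rps12-ps9 rose from 0.752 ± 0.258 CPM to 1.57 ± 0.273 CPM (1.05, adjusted p = 0.0181) and 1.51 ± 0.492 CPM (1.00, adjusted p = 0.0274). In each WT contrast 3 of the 5 were thus called higher, where 7.09% and 7.03% of all genes were, and 1 (Rps12) lower, where 6.61% and 7.02% were. Rps12-ps1 did not pass, at -0.96 (adjusted p = 0.157) and -0.86 (adjusted p = 0.225). Untested copies moved both ways at few counts. Rps12-ps10 went from 0.431 CPM in WT (6 to 10 counts) to 0.0945 CPM in FUN025/+ and 0.143 CPM in FUN025/FUN025 (1 to 2 counts), without overlap. In the same order, Rps12-ps19 was at 0.279, 0.0791 and 0.161 CPM, and Rps12-ps24 at 0.0903, 0.294 and 0.304 CPM. Together the 25 genes held 214 ± 21.9 CPM in WT, 160 ± 6.48 CPM in FUN025/+ and 164 ± 11.7 CPM in FUN025/FUN025 libraries. These copies were looked at after the rise of Rps12-ps4 had been seen, and their counts depend on how reads shared between copies were assigned.

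**Figure D4:**
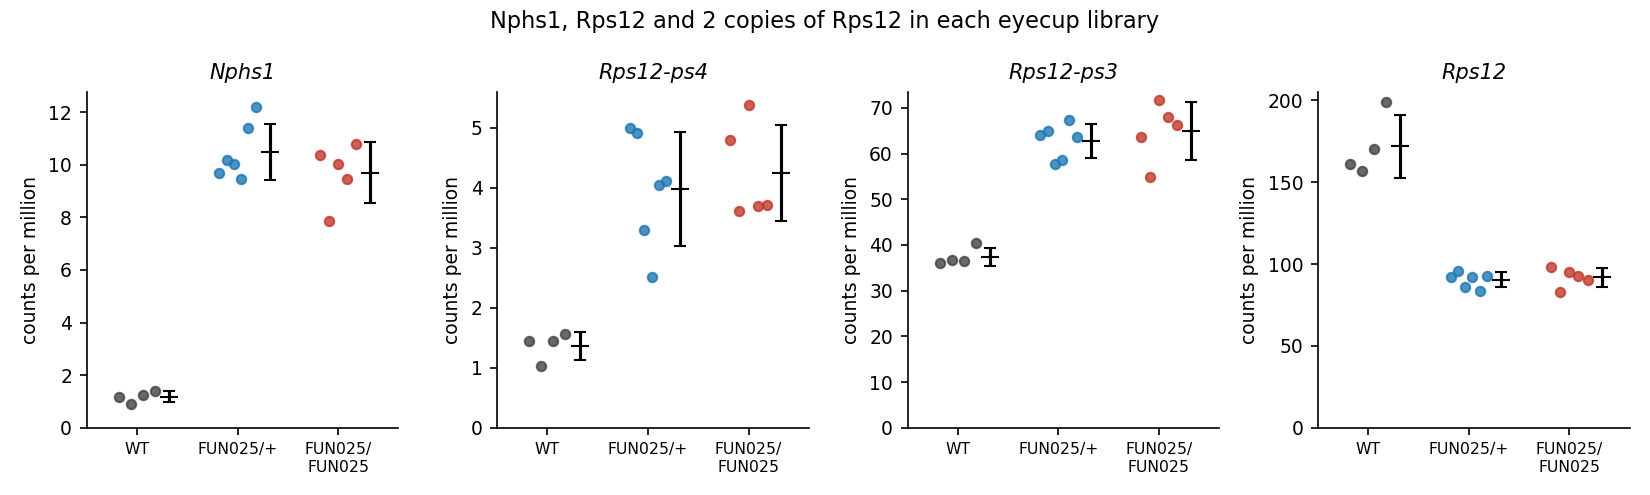
CPM (y axis, linear, from 0, a separate scale per gene) of Nphs1, Rps12-ps4, Rps12-ps3 and Rps12 in each library (points), with the mean and SD of each group at the right of its points. In both mutant groups the first 3 genes lie above all WT libraries, and Rps12, at 83.0 to 98.4 CPM, lies below them.

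Nphs1 and Rps12-ps4 did not rise in proportion. WT libraries held 0.808 to 0.895 Nphs1 counts per count of Rps12-ps4, FUN025/+ libraries 1.94 to 3.76 and FUN025/FUN025 libraries 1.87 to 2.90, so the ratio was higher in every mutant library than in every WT library. The ratio contains the rise for which Nphs1 was listed, so it is a description with no test. Whether the rise of Nphs1 came from the exon shared with Rps12-ps4, from the coding exons or from both was not tested.

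The class of processed pseudogenes was looked at next, also after values had been seen. Of 646 tested, 26.8% were higher and 8.67% lower in FUN025/+ against WT, and 25.7% and 8.05% in FUN025/FUN025 against WT, where 5.63% and 7.38%, and 5.57% and 7.90%, of protein-coding genes were. Apart from Nphs1, 88 tested protein-coding genes have an exon that overlaps a processed pseudogene, and 20.5% of them were called in FUN025/+ (15 higher, 3 lower) and 19.3% in FUN025/FUN025 (13 higher, 4 lower). Of all protein-coding genes tested, 13.0% and 13.5% were called. The median log2 fold change of the 88 genes was 0.10 and 0.09, and 2 of them in each contrast were called higher by more than 2-fold. Between the mutant groups 1 of the 646 processed pseudogenes was called (0.155%), where 0.522% of all genes tested were.

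The genes whose level followed that of Nphs1 most closely over the 15 libraries are given as a description, since the measure largely ranks genes by the step from WT for which Nphs1 was chosen. Likeness was the root mean square difference of log2 CPM after centring each gene on its WT mean, over 17586 tested genes with a mean of at least 1 CPM. Nearest was Gm23935 (0.33), annotated as a miRNA gene on chromosome 16, at 70.2 ± 5.07 CPM in WT, 505 ± 119 CPM in FUN025/+ and 526 ± 106 CPM in FUN025/FUN025. Gm42418 (0.51), a lincRNA gene on chromosome 17 lying wholly inside the rRNA gene CT010467.1 (0.55), was next, then the processed pseudogene Gm13394 (0.54), the miRNA gene Gm24270 (0.62) and the processed pseudogene Gm11518 (0.63). Other annotated genes held 100% of the 31-base stretches of Gm23935, Gm24270 and Gm11518, 97.5% of those of Gm13394, 96.3% of those of Gm42418 and 70.4% of those of CT010467.1. The same share over all genes tested was not computed, so these values have no background.

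The partners of nephrin were read against the same background. In a list of slit diaphragm genes and nephrin partners, 21 of 23 were tested. In FUN025/+ against WT 2 were higher and 0 lower, and in FUN025/FUN025 against WT 2 were higher and 2 lower, or 9.52% and 19.0%, where 13.7% and 14.0% of all genes were called, with a median log2 fold change of 0.01 in each. Between the mutant groups edgeR called 0 (0 at an unadjusted p under 0.05, 0 by DESeq2), where 0.522% of all genes were called. Prkci, an atypical protein kinase C of cell polarity, rose by 0.35 (adjusted p = 0.0381) and 0.39 (adjusted p = 0.0294), and Cd2ap, an adaptor that binds nephrin, by 0.19 (adjusted p = 0.00832) and 0.20 (adjusted p = 0.00723) on the log2 scale. In FUN025/FUN025 eyecups, Podxl, the sialoprotein podocalyxin, which endothelium also expresses, fell by 0.39 (adjusted p = 0.0411), and the kinase gene Fyn, whose product phosphorylates nephrin, by 0.34 (adjusted p = 0.00684). Summed endothelial markers ran from 1175 to 1378 CPM in WT, 935 to 1287 in FUN025/+ and 850 to 1061 in FUN025/FUN025. Of these 8 markers 6 were called lower in FUN025/FUN025, where 7.02% of all genes were. The part of these markers in the fall of Podxl was not tested.

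**Figure D5:**
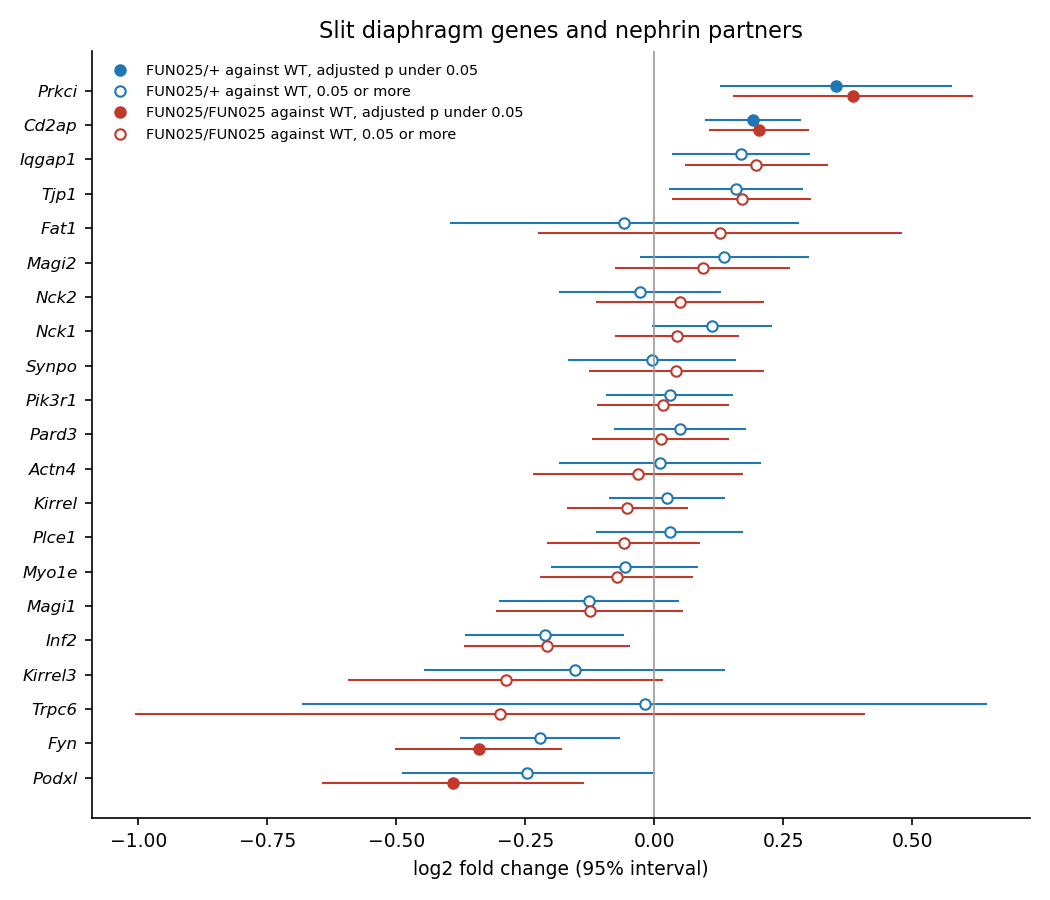
Log2 fold change against WT with its 95% interval (x axis) for the 21 tested slit diaphragm genes and nephrin partners, in FUN025/+ (blue) and FUN025/FUN025 (red) eyecups, with filled points for an adjusted p under 0.05. All fitted changes lie between -0.39 and 0.39.

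Wt1, a transcription factor that helps define podocytes, was close to absent, at 0.354 ± 0.142 CPM in WT, 0.112 ± 0.0859 CPM in FUN025/+ and 0.314 ± 0.291 CPM in FUN025/FUN025 libraries, and failed the low-count filter. The whole list of 8 podocyte markers summed to 503 to 592 CPM in WT, 419 to 536 in FUN025/+ and 398 to 534 in FUN025/FUN025, most of it Podxl and Synpo. Of 6 tested markers Podxl was the single gene called, lower in FUN025/FUN025, where 7.02% of all genes tested were called lower.

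Lists of genes tied to the other neighbours were read against the same 13.7% and 14.0% of all genes called. In the amyloid precursor family and its processing enzymes (16 tested), 2 were higher and 1 lower in FUN025/+ (18.8% called), and 2 higher and 3 lower in FUN025/FUN025 (31.3% called). Besides Psenen, Adam10, an alpha-secretase, rose by 0.24 (adjusted p = 0.00487) and 0.24 (adjusted p = 0.00553), Psen2, a presenilin, fell by 0.28 (adjusted p = 0.0118) and 0.40 (adjusted p = 0.00116), and Apba1, an adaptor that binds the precursor protein, was at -0.26 (adjusted p = 0.203) in FUN025/+ and fell by 0.43 (adjusted p = 0.0418) in FUN025/FUN025. Among NF-kB subunits and inhibitors, 21.4% and 14.3% of 14 tested genes were called. Ikbkg, the regulatory subunit of the IkB kinase, rose by 0.26 (adjusted p = 0.00179) and 0.24 (adjusted p = 0.00450), Nfkb1 fell by 0.18 (adjusted p = 0.00724) and 0.17 (adjusted p = 0.0135), and Rela fell by 0.19 in FUN025/+ (adjusted p = 0.0364).

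Among Hcst partners and signalling adaptors (13 tested), Trem2, a myeloid receptor that signals through the adaptor Tyrobp, rose by 0.50 in FUN025/FUN025 against WT (adjusted p = 0.0151) and was also higher than in FUN025/+ (adjusted p = 0.0398). It was the single call of that list, since edgeR called 0 in FUN025/+ against WT (1 at an unadjusted p under 0.05, 0 by DESeq2). Tyrobp, 40.7 kb from Nphs1, was at -0.29 (adjusted p = 0.131) and 0.04 (adjusted p = 0.875). Without the 4th WT library, which held the most Tyrobp, these values were -0.11 and 0.22. Summed macrophage markers lay between 454 and 570 CPM in WT, 452 and 649 in FUN025/+ and 517 and 588 in FUN025/FUN025. Of these 8 markers 1, Cd68, was called higher in FUN025/FUN025 against WT (0.32, adjusted p = 0.0167), where 7.03% of all genes tested were. In that contrast 7 of 8 had a fitted change above 0, among them Cx3cr1 (0.38, adjusted p = 0.244), C1qb (0.28, adjusted p = 0.257) and C1qa (0.24, adjusted p = 0.283). The part of these markers in the level of Trem2 was not tested. In proline and hydroxyproline metabolism, 8.33% and 16.7% of 12 tested genes were called. P4ha2, a collagen prolyl hydroxylase subunit, fell by 0.43 (adjusted p = 0.00701) and 0.39 (adjusted p = 0.0168), and Oat, ornithine aminotransferase, rose by 0.23 in FUN025/FUN025 (adjusted p = 0.00217). All adjusted p values in these lists are from the edgeR fit of 18979 genes.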

How the data were processed

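RNA-seq libraries from posterior eyecups of 4 WT, 6 FUN025/+ and 5 FUN025/FUN025 mice were analysed, grouped by sample title, 1 library per mouse. The deposited values are whole-number read counts per Ensembl gene, not normalised by the authors. Libraries were made after oligo(dT) enrichment with a kit that does not mark strand and sequenced as read pairs. The submitters' processing notes name FastQC 0.11.8, Trimmomatic 0.39, HISAT2 2.1.0, SAMtools, featureCounts 2.0.0 and GRCm38; the strand setting, the treatment of reads matching several places and the annotation release are not given in the sources used here.

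Symbols, exons and sequences were taken from GENCODE M21 (GRCm38), which held 55154 of the 55421 gene identifiers. As in the study, the 15% of genes with the lowest variance of log2 CPM (prior count 2) were removed, leaving 47108, and low counts were filtered (edgeR filterByExpr), leaving 18979. Libraries were scaled by TMM (factors 0.976 to 1.02), and genotypes were compared with edgeR 4.0.16 (R 4.3.3), robust quasi-likelihood fit over all 15 libraries, Benjamini-Hochberg adjusted p under 0.05. CPM values are counts per 1000000 counts of the TMM-scaled library size. Shared sequence was counted as 31-base stretches found on either strand in transcripts of another gene. Totals of 10903183 to 20029919 counts put 3 counts at 0.150 to 0.275 CPM. Alternatives were other scaling, DESeq2 1.42.0, other filters, fewer libraries and a replicate block. The fit was tested on simulated data. The 31 pairs of libraries of 1 genotype held 0 identical pairs, and their counts differed beyond counting error (chi-square per gene 3.14 to 18.2).

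The 6 genes, the gene lists and the tests were chosen with earlier results of these data known. Genes named are the 6 genes, Tmem135, genes called within 250 kb of Nphs1 or overlapping it, up to 4 called genes of each list, and the 6 genes most like Nphs1. Outside this rule, Wt1, Synpo, Tyrobp, Cd68, Cx3cr1, C1qa and C1qb are named beside a result they bear on, and Wdr62, Thap8 and Kmt2b for 1 library that stands apart, all chosen after their values were seen. The Rps12 copies and the pseudogene classes were added after values were seen. Some mice share a replicate number but are different animals. Correlations of their deviations from the group means ran from -0.38 to 0.13, so the numbers do not pair the samples. RNA quality per library was not used here. The level of 1 gene of the lists is not reported here.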

Additional observations from a re-analysis of the deposited data

Results flagged for a closer look

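Among 32 genes within 250 kb of Nphs1, 93 groups of 4 to 6 libraries were examined for a single library far from the others of its genotype, and 8 were found, where chance gives about 1 in 20 (4.65). Wdr62 was at 4.65 CPM in the 3rd WT library, against 5.51 CPM in the nearest other, and at 2.06 CPM in the 6th FUN025/+ library, against 3.93 CPM. Thap8 was at 1.22 CPM in the 4th FUN025/+ library, against 0.823 CPM, and Lin37 at 6.27 CPM in the 3rd FUN025/FUN025 library, against 7.44 CPM. Kmt2b stood at 80.1 CPM in the 3rd WT library, against 77.4 CPM. Tyrobp, an adaptor of myeloid cells, was at 32.5 CPM in the 4th WT library, against 21.6 CPM. Kirrel2 was at 0.514 CPM in the 1st FUN025/+ library, against 0.165 CPM, which is 7 counts against 2, and at 0.0770 CPM in the 2nd FUN025/FUN025 library, which is 1 count against 0 in the others. No library of Nphs1, Rps12-ps4 or Aplp1 stood apart in this way.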

How the results depend on the processing

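Over 7 other settings and 15 fits that each left out 1 library, the log2 difference of Nphs1 from WT stayed between 3.05 and 3.23 in FUN025/+ and between 2.94 and 3.11 in FUN025/FUN025 when a library was left out. Rps12-ps4 passed in every alternative fit against WT. Among values of single genes, 819 stayed on the same side of the threshold, 32 no longer passed (Tbcb, Lin37, Tmem147os and Cox6b1) and 4 newly passed (Lin37), none with a change of sign past the threshold. Leaving out 1 library gave 1446 to 2722 called genes in FUN025/+ against WT, 1528 to 2701 in FUN025/FUN025 against WT and 68 to 110 between the mutants, and 5 to 8 genes within 250 kb of Nphs1 in FUN025/FUN025 against WT. The lowest counts against WT (1446, 1528 and 5) came without the 4th WT library, and the cause was not tested. With DESeq2's Wald test 171 genes rather than 99 were called between the mutants, and 2 rather than 1 gene of the lists. The replicate block, with numbers that do not pair the mice, gave 2010, 2137 and 80 called genes and log2 differences for Nphs1 of 3.06, 2.99 and -0.07. Libraries of 10903183 to 20029919 counts limit what can be said of Kirrel2, Hcst, Prodh2 and Nphs1os. Nfkbid could not be fitted where 10 counts were required in every library.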
